A study of Mus musculus with 15 samples.

Results

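The promoters named Gad1, Sst, Lhx6 and Gabrg3 are 4 of the 4429 promoter names in a promoter-capture Hi-C table of sorted hippocampal nuclei, and were taken from it by name. They hold 32 of its 36353 listings, a listing being 1 promoter name paired with 1 HindIII fragment. In promoter-capture Hi-C, pieces of DNA that are neighbours in the nucleus are ligated, and the ligated pairs that hold a chosen promoter are fished out with baits and sequenced. The values are interaction scores, whole numbers of 2 or more, and no score is listed in 84.7% of the cells of the table and in 86.9% of the 480 cells of these 4 names.

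Every library came from ArcCreERT2 x R26R-STOP-floxed eYFP mice, genotype +/+, in which cells with an active Arc promoter switch on the yellow fluorescent protein while 4-hydroxytamoxifen is present. The treatment protocol gives 1 dose of 4-hydroxytamoxifen 1 h before contextual fear conditioning, with dark housing before it. Hippocampi of 10 to 12 mice were pooled to reach 10000 nuclei per condition, sorted with antibodies to NeuN, a marker of neurons, and to GFP. There were 3 Basal libraries, 4 Early, 4 Late and 4 Reactivated. Brains were taken 1.5 to 2 h after the behavioural test, or 5 days later from mice that were or were not shown the cue again. The protocol does not say which group was collected at which of these points, how Basal mice were treated or how old any mice were. A treatment label per sample gives foot shock on day 0, no recall and a collection day that goes up by 1 with each sample, days 0 to 2 in Basal, 3 to 6 in Early, 7 to 10 in Late and 11 to 14 in Reactivated. These days differ among replicates of a group and from those of the protocol. The groups are therefore called by their titles. The sort used NeuN, which marks neurons of any transmitter type, and also the label switched on through the Arc promoter. The share of interneurons among nuclei sorted in this way is unknown, and the table holds no expression values that could check it.

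GABA is the main inhibitory transmitter of the hippocampus and is released by interneurons. Gad1 encodes GAD67, an enzyme that makes GABA from glutamate. Lhx6 encodes a LIM homeodomain transcription factor that interneurons born in the medial ganglionic eminence need for their fate, among them those that contain somatostatin, the peptide encoded by Sst. Gabrg3 encodes the gamma3 subunit of the GABA-A receptor, the chloride channel that opens when GABA binds. An enhancer that touches a promoter can raise its transcription, but a contact alone does not show activity.

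The gene starts that the 4 names refer to are shown as RefSeq promoter windows on build GRCm38.p6, 250 bases before to 50 bases after the start, because the captured end of each contact is known here by name alone. The table uses another build, mm9, and no position was carried over between the builds. Capitals mark a cyclic AMP response element, TGACGTCA, the site of the activity-dependent factor CREB that was first studied in the somatostatin gene, or an AP-1 site, TGACTCA or its reverse complement TGAGTCA, bound by Fos and Jun proteins.
Gad1, chr2:70561879-70562178, plus strand: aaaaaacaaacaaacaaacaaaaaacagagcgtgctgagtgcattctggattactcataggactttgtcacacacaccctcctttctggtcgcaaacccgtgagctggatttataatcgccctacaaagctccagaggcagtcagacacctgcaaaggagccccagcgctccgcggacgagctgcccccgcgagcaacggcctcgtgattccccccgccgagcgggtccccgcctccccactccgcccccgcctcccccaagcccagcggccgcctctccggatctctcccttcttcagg
Sst, chr16:23890795-23891094, minus strand: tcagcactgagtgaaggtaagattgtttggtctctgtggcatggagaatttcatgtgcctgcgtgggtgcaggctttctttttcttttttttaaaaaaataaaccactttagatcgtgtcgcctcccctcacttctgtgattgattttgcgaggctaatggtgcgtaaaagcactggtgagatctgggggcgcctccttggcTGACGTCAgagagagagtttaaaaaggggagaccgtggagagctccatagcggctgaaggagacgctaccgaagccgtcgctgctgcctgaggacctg
Lhx6, chr2:36105359-36105658, minus strand: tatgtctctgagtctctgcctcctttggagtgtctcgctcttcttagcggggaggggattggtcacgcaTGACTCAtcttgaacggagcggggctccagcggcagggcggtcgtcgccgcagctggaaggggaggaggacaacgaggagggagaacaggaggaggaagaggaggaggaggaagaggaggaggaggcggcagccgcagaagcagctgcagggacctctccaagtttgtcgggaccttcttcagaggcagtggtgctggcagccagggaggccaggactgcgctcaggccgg
Gabrg3, chr7:57387166-57387465, minus strand: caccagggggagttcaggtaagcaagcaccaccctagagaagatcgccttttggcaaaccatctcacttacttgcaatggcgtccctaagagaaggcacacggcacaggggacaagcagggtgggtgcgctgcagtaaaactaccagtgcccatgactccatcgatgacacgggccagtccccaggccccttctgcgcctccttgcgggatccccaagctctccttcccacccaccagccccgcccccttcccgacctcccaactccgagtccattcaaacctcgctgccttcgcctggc
The Sst window held the cyclic AMP response element at position -48 from the start, and the first of the 3 Lhx6 windows held an AP-1 site at position -181. Of 32851 windows of this length, 1.79% held the first motif and 5.20% the second, searched on both strands. The HindIII site AAGCTT, found in 7.45% of all windows, was in none of the 6 windows of the 4 genes. A match is a string of letters and no evidence of a bound factor.

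The listings named Gad1 do not lie on the chromosome of Gad1. All 11 fragments were on chromosome 10, whereas RefSeq places Gad1, and the window above, on chromosome 2. RefSeq lists a pseudogene, Gad1-ps, on chromosome 10 between Dusp6 and Csl, with no protein-coding gene on either side before them. In the table, 7 of the 11 fragments lay within 1 Mb of their median position, from 98647451 to 99406968 of mm9. Their nearest neighbours included fragments of Dusp6 at 9.62 kb and of Csl and Kitl at 0.003 kb, whereas the promoters that flank Gad1 on chromosome 2, Klhl23 and Gorasp2 among them, had theirs elsewhere. Of 4280 promoter names that match a RefSeq symbol, 9 had fragments mainly on another chromosome than RefSeq gives, and the other 8 were ribosomal protein genes such as Rpl13a and Rps27a. The bait coordinates are not used here, so which sequence was captured under this name was not tested. The contacts are therefore called those named Gad1 and cannot be read as contacts of the GAD67 gene. Sst on chromosome 16, Lhx6 on chromosome 2 and Gabrg3 on chromosome 7 had every fragment on the chromosome that RefSeq gives.

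The number of listings that a library scored bears on every value that follows. The listings scored per library ran from 1715 to 12133 in 13 libraries, but were 35 and 388 in Reactivated libraries 1 and 2, in which none of the 4 promoters had a score. Library medians of the score ran from 10 to 313, so a percentile among the scores of the same library is given where levels are compared. In 6 pairs of libraries of a group (numbers 1 and 2 of Basal, 3 and 4 of Early, and both of these number pairs in Late and in Reactivated) the smaller shared 48.3% to 100% of its fragments with the larger, against 5.73% to 29.7% in the other 99 pairs. Whether the libraries of such a pair come from separate samples was not tested. They are kept as the labels give them, and the 15 libraries are also treated as 9 library sets. Groups were compared on the asinh scale, which is near the logarithm for high scores and 0 where no score is listed, with limma fitted to the whole table and p adjusted over all of it. The design calls the libraries biological replicates, but where sets share fragments the spread between libraries may be partly technical.

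Sst had 15 listed fragments, more than 85.4% of all promoters, where the median promoter had 6. The Sst fragments spanned 2398 kb of chromosome 16. Those scored in Reactivated were 7 neighbouring fragments in the middle of that span, from 23753606 to 23954758, and none of these 7 had a score in any Basal, Early or Late library. The other 8 fragments flanked this block on both sides and had scores in Basal, Early or Late libraries alone. Being scored in Reactivated alone was common. Of the 12940 listings of the whole table scored in Reactivated, 6520 had no score in another group. These made up 17.9% of all listings, against 46.7% of the Sst listings. The fragment at 23758061 to 23765746 had the highest Sst scores, 1112 and 1393 in Reactivated libraries 3 and 4, and was listed at 0 in Reactivated libraries 1 and 2 and in the other 11 libraries. Those scores stood at percentiles 78.5 and 80.4 of their libraries. Its neighbour at 23753606 to 23758058, only 2 bp away, had 56 in each of those libraries. The fragment at 23882517 to 23885424 had scores of 224 and 198 in the same pair, and the one at 23898358 to 23899402 had 52 and 58. The remaining 3 of the block, at 23793385, 23870944 and 23954255, had scores of 3 to 20.

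Each of the 7 block fragments was scored in both Reactivated libraries 3 and 4. These hold 31.8% and 33.4% of all listings, and 46.7% of the Sst listings had a score in them. They form 1 library set. Of all listings scored in either of them, 88.0% were scored in both. Finding all 7 in both is thus near the background and rests on 1 library set. The block spanned 201 kb. This arrangement was noticed in the data, so it is given as a description. Among 711 promoters with at least 5 fragments scored in Reactivated library 3 or 4 and at least 5 scored in other libraries only, the Reactivated fragments followed each other without another between them in 15 promoters, or 2.11%, Sst included. The median span of such fragments over the 711 promoters was 752 kb, and 7.88% of them had a span no larger than that of Sst. The Reactivated fragments lay 0 to 128 kb from the median Sst position, a position they help to set. Over all listings the median distance was 81.2 and 84.4 kb in these 2 libraries, and 80.2 to 428 kb in the 11 Basal, Early and Late libraries.

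The 8 Sst fragments outside the block scored between 7 and 153. In Late libraries 3 and 4 the fragment at 23435940 to 23437402 scored 153 and 113, and in Basal library 3 it scored 9, the only Sst fragment scored in more than 1 library set. The fragment at 23684852 to 23685870 had 90 and 52 in Early libraries 3 and 4, and the one at 24173070 to 24173949 had 13 in both. Single libraries gave the rest, with 7 and 16 in Basal library 3, 31 in Early library 4, and 13 and 10 in Late library 2. Basal libraries 1 and 2, Early libraries 1 and 2 and Late library 1 had no Sst score at all.

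**Figure D1:**
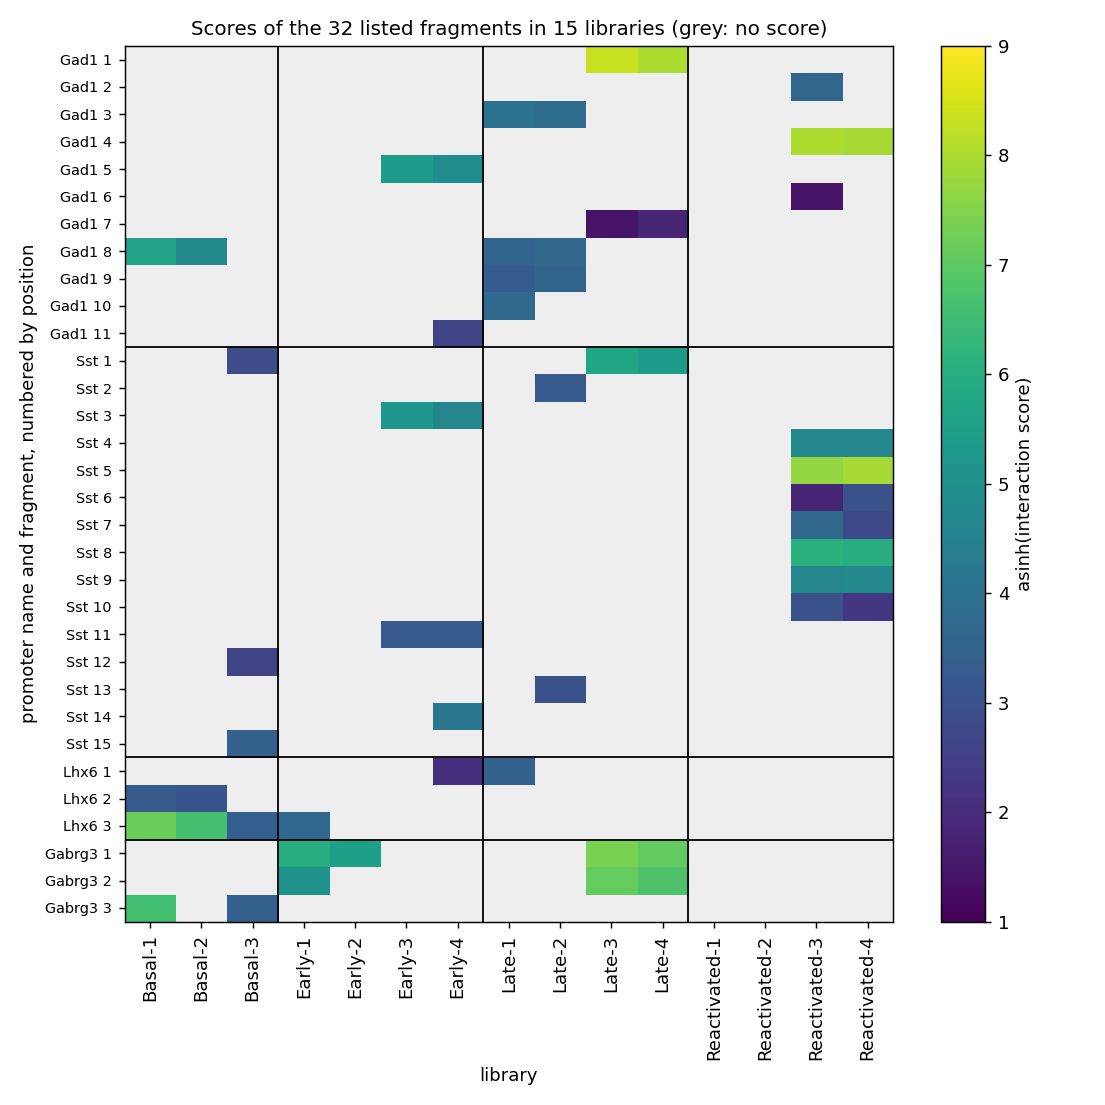
Interaction scores, on the asinh scale, of the 32 listed fragments (rows, numbered by position within each promoter name) in the 15 libraries (columns); grey cells hold no score. Sst fragments 4 to 10 are coloured in Reactivated libraries 3 and 4 alone, and Lhx6 fragment 3 in the 3 Basal libraries and Early library 1.

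Counted per library, a contact being called at a score of 5 or more, Sst had 0, 0, 6 and 7 called contacts in Reactivated libraries 1 to 4, against 0, 2, 1 and 1 in Late libraries 1 to 4. Early libraries 1 to 4 had 0, 0, 2 and 3, and Basal libraries 1 to 3 had 0, 0 and 3. The groups overlapped, because Reactivated holds both the highest Sst counts and 2 libraries with none. The means were 3.25 ± 3.77 in Reactivated (SD, n = 4) and 1.00 ± 0.816 in Late (SD, n = 4), which differed by 2.25 (standard error 1.18, limma adjusted p 0.372). The difference in called contacts was 2.00 (standard error 1.18, limma adjusted p 0.556) against Early and 2.25 (standard error 1.27, limma adjusted p 0.552) against Basal. The mean asinh score of Sst differed by 0.763 in Reactivated against Late (standard error 0.499, limma adjusted p 0.509). Without Reactivated libraries 1 and 2 this difference was 1.82 (limma adjusted p 0.000723), in a setting where 43.8% of all promoters passed, and it then rests on a single library set. With all libraries and 1 mean per library set it was 0.763 (limma adjusted p 1). After quantile normalization it was 0.0285, and among listings scored in at least 3 libraries, which leaves 1 Sst fragment, it was -2.79, each with a limma adjusted p over the threshold (1 and 0.294).

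Lhx6 had 3 listed fragments, as many as or more than 25.9% of promoters. Its scores were highest in Basal and none was listed in Reactivated. The fragment at 36066160 to 36070128 of chromosome 2 had scores of 682, 388 and 15 in Basal libraries 1 to 3, 21 in Early library 1, and no score in any Late or Reactivated library. Its Basal scores stood at percentiles 76.0, 72.6 and 58.0 of their libraries, and the Early score at percentile 21.4. It was the single member fragment scored in every library of a group. The same fragment was listed, with the same scores, under Mrrf, a mitochondrial ribosome recycling factor gene that RefSeq places near Lhx6 with a single protein-coding gene, Rbm18, between them, so the score cannot be assigned to Lhx6 alone. The fragment at 35910137 to 35916300 had 14 and 11 in Basal libraries 1 and 2 and nowhere else. These scores were near the floor, at percentiles 3.00 and 2.74 of their libraries. The third, at 33835943 to 33857543 and at -2.07 Mb from the median position, was 21.6 kb long and had 4 in Early library 4 and 16 in Late library 1.

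The mean asinh score of Lhx6 over its 3 fragments was 0 in every Reactivated library, against 3.52, 3.25 and 1.13 in Basal libraries 1 to 3, and the 2 groups did not overlap. In Late libraries 1 to 4 it was 1.16, 0, 0 and 0, and in Early libraries 1 to 4 it was 1.25, 0, 0 and 0.698, so that each group overlapped with Basal library 3 alone of the Basal libraries. The difference was -2.63 for Reactivated against Basal (standard error 0.602, limma adjusted p 0.0785), -2.35 for Late against Basal (standard error 0.602, limma adjusted p 0.108) and -2.15 for Early against Basal (standard error 0.602, limma adjusted p 0.245). These 3 comparisons share the Basal libraries. None passed the threshold of 0.05, and each had an unadjusted p under it, of 0.000203, 0.000684 and 0.00155. Of all 4429 promoters, 3.66% had a lower mean score at an unadjusted p under 0.05 in Reactivated against Basal, 3.23% in Late against Basal and 3.45% in Early against Basal. Lhx6 was the 1 of the 4 members in each of these counts. The Lhx6 fragment at 36066160 did not overlap with Basal in Late or in Reactivated either, as was true of 0.996% and 1.04% of all listings. Promoters lower in Reactivated than in Basal without overlap made up 2.64% of all.

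For the fragment at 36066160 alone, the asinh score differed by -5.76 in Reactivated against Basal (standard error 1.93, limma adjusted p 0.181), by -5.76 in Late against Basal (standard error 1.93, limma adjusted p 0.182) and by -4.82 in Early against Basal (standard error 1.93, limma adjusted p 0.333). In Reactivated against Basal it passed without Basal library 3 (-6.94, limma adjusted p 0.000294), without Early library 1 (limma adjusted p 0.00302), and without Reactivated library 1 or 2 (limma adjusted p 0.0492 and 0.0478). In Late against Basal and Early against Basal it passed without Basal library 3 and without Early library 1, with limma adjusted p between 0.000290 and 0.00385. Over these 3 comparisons, 5.76% to 6.24% of all listings passed without Basal library 3 and 0.426% to 0.567% without Early library 1, and in Reactivated against Basal 10.9% and 12.3% passed without Reactivated library 1 or 2.

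The Lhx6 difference in mean score also turned on settings. For Reactivated against Basal it passed after quantile normalization (-2.38, limma adjusted p 0.0171), as 0.429% of all promoters did. It also passed among listings scored in at least 3 libraries (-5.76, limma adjusted p 0.0186), as did 0.323% of promoters. That filter leaves only the fragment at 36066160, which is also listed under Mrrf and meets it through 3 Basal scores and 1 Early score. This setting is therefore no separate support for the difference. Without Reactivated libraries 1 and 2 the Lhx6 difference passed as well (-2.63, limma adjusted p 0.00561), in a setting where 45.6% of all promoters did. Without Basal library 3, the Basal group being then a single library set, it was -3.38 (limma adjusted p 0.00142), with -3.09 (limma adjusted p 0.00387) in Late against Basal and -2.90 (limma adjusted p 0.00631) in Early against Basal. Of all promoters, 1.4%, 1.54% and 1.49% passed without that library in these comparisons. With 1 mean per library set it was -2.26 (limma adjusted p 0.863). With fragments listed under a single promoter name, which leaves out the one shared with Mrrf, it was -1.07 (limma adjusted p 0.389).

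Gabrg3 also had 3 listed fragments, and 2 of them lay 5.39 kb apart on chromosome 7. The fragment at 64639007 to 64639724 scored 198 and 124 in Early libraries 1 and 2, and 808 and 584 in Late libraries 3 and 4, which makes 3 library sets. The fragment at 64645112 to 64648987 had 83 in Early library 1 and 604 and 437 in Late libraries 3 and 4. Both were absent from the Basal and Reactivated libraries, and within their groups from Early libraries 3 and 4 and Late libraries 1 and 2. The Late scores of the first stood at percentiles 86.4 and 87.7, and its Early scores at percentiles 82.7 and 46.1. The third fragment, at 151493403 to 151499963, lay 86.9 Mb from the median position and had 359 in Basal library 1 and 16 in Basal library 3. Basal shared no Gabrg3 fragment with Early or Late, and Reactivated had none.

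The mean asinh score of Gabrg3 was 0 in every Reactivated library, against 0, 0, 4.83 and 4.61 in Late libraries 1 to 4. The difference was -2.36 (standard error 1.08, unadjusted p 0.0385, limma adjusted p 0.327). At an unadjusted p under 0.05, 5.78% of all promoters were lower in this comparison. With 1 mean per library set the difference was again -2.36, with a limma adjusted p of 1. Late against Early differed by 0.976 (standard error 1.08, limma adjusted p 0.992), and the groups overlapped. Gabrg3 had 0, 0, 2 and 2 called contacts in Late and 2, 1, 0 and 0 in Early.

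The 11 fragments named Gad1 were spread thinly, and 10 of them were scored in a single library set. The highest score was 2052 in Late library 3, for a fragment at 22319687 to 22321426 of chromosome 10 that had 1500 in Late library 4. That fragment lay at -76.6 Mb from the median position, and these scores stood at percentiles 98.5 and 98.7. A fragment at 98684745 to 98691611 had 1501 and 1437 in Reactivated libraries 3 and 4, and one at 98848823 to 98852455 had 112 and 66 in Early libraries 3 and 4. The fragment at 99038355 to 99041748 was scored in 2 groups, with 18 and 19 in Late libraries 1 and 2 and 137 and 63 in Basal libraries 1 and 2. The Late scores stood at percentiles 48.3 and 49.1 and the Basal scores at percentiles 28.6 and 20.0, so Late was lower by score and higher by percentile. Fragments at 98647451, 99406206 and 101255054 had 14 to 28 in Late library 1 or 2. The 4 others had scores of 2 to 19.

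Every Late library held a score under the name Gad1. The mean asinh score was 1.33, 1.01, 0.888 and 0.893 in Late libraries 1 to 4, against 0, 0, 0.492 and 0.684 in Early libraries 1 to 4, with no overlap. Late was higher than Early by 0.737 (standard error 0.429, limma adjusted p 0.854). Against Basal, with 0.510, 0.440 and 0, Late was higher by 0.714 (standard error 0.463, limma adjusted p 0.814), again with no overlap. Higher values without overlap were found for 2.62% of promoters in Late against Early and for 5.37% in Late against Basal. By called contacts Late overlapped with both groups, at 4, 3, 1 and 1 in Late libraries 1 to 4. Early libraries 1 to 4 had 0, 0, 1 and 2 called contacts, and Basal libraries 1 to 3 had 1, 1 and 0. The Late scores came from different fragments in Late libraries 1 and 2 than in Late libraries 3 and 4, with no fragment in common. Those in Late libraries 3 and 4 were 2052 and 1500 at the fragment -76.6 Mb from the median position, and 2 and 3 at another. In Reactivated libraries 1 to 4 the mean asinh score was 0, 0, 1.19 and 0.724, a difference from Late of -0.553 (standard error 0.429, limma adjusted p 0.593).

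**Figure D2:**
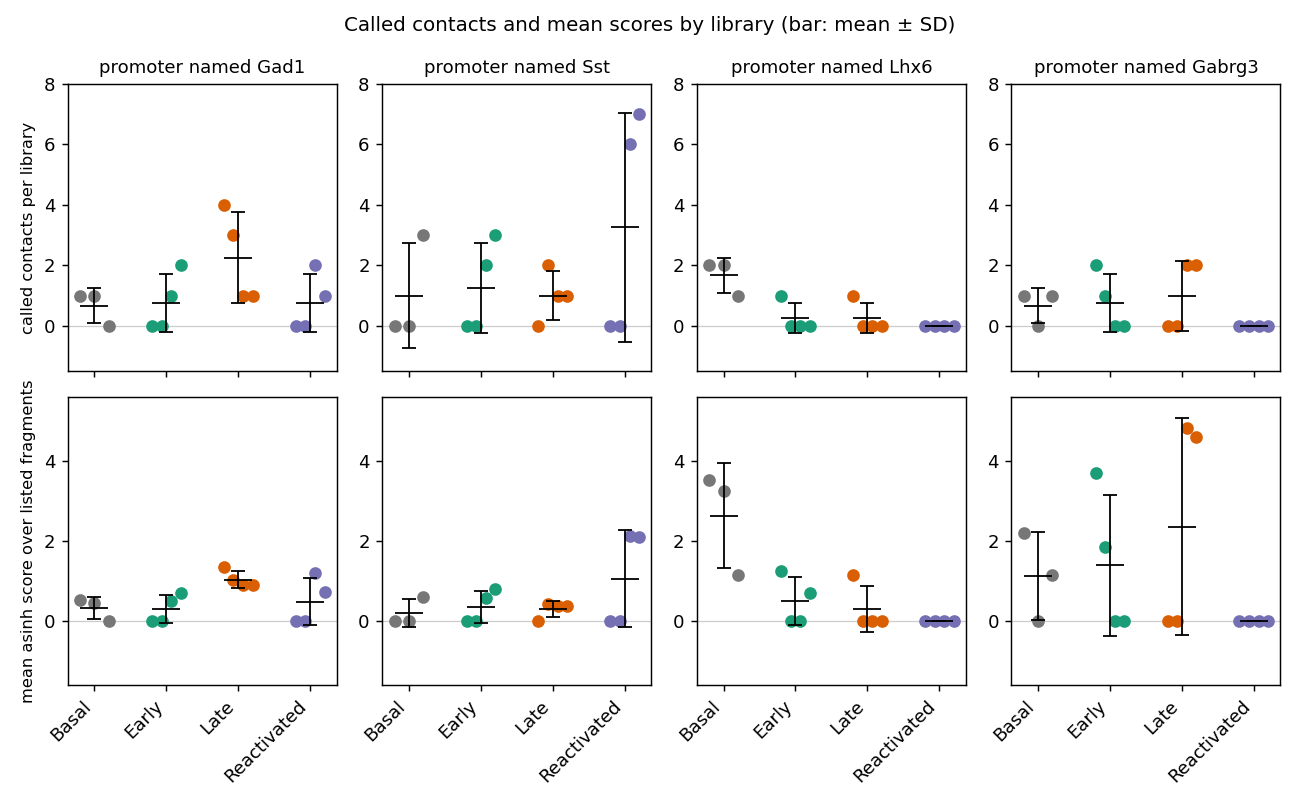
Called contacts (top row) and mean asinh score over the listed fragments (bottom row) of each promoter name, 1 point per library, with the mean and SD of each group as bars. Reactivated libraries 3 and 4 had 6 and 7 called Sst contacts and Reactivated libraries 1 and 2 none, and Lhx6 was at 0 in every Reactivated library.

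Across the 6 comparisons, 0 of the 32 listings and 0 of the 4 promoters passed the limma threshold, by mean score or by called contacts. Of all listings, 0% passed in any comparison. Of all promoters by mean score, 0% passed in Early against Basal and in Reactivated against Early, 0.0903% in Late against Early, 0.0677% in Reactivated against Late and in Late against Basal, and 0.0226% in Reactivated against Basal, and by called contacts 0% passed in each. At an unadjusted p under 0.05 by limma, 5 of the 32 listings lay in Early against Basal, where 10.6% of all listings did. The counts were 4 in Late against Early (background 15.1%), 8 in Reactivated against Late (26.2%), 4 in Late against Basal (12.9%), 8 in Reactivated against Basal (20.3%) and 7 in Reactivated against Early (21.3%). The members' counts were thus near the background of each comparison. By mean score, 1 of the 4 promoters had an unadjusted p under 0.05 in Early against Basal (background 5.83%), in Late against Basal (8.2%), in Reactivated against Basal (11.2%) and in Reactivated against Late (13.8%). There were 0 in Late against Early (6.95%) and in Reactivated against Early (11.3%). By called contacts at an unadjusted p under 0.05, Lhx6 was the 1 member in Early against Basal, Late against Basal and Reactivated against Basal, where 4.57%, 8.47% and 8.88% of 4403 promoters were, and the members' count was 0 in Late against Early (9.54%), Reactivated against Late (14.4%) and Reactivated against Early (10.7%). A listing that did not pass is no evidence of equal contacts, since limma called no listing of the whole table in these comparisons.

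The 4 promoters differed in how far their fragments were shared between groups. Of the 15 Sst fragments 14 were scored in 1 group only, and of the 11 named Gad1 10 were, but of the 3 Lhx6 and the 3 Gabrg3 fragments 1 each. Together these are 26 of 32 (81.2%), against 67.1% of all listings. In at least 2 library sets there were 1 Sst fragment, 1 named Gad1, 2 of Lhx6 and 3 of Gabrg3, or 7 of 32 (21.9%), against 34.4% of all listings. At most 3 sets and 4 libraries scored any member fragment, while the most for any listing was 14 libraries. Within the paired libraries of a set, 22 of 32 scored occurrences (68.8%) were found in both, against 71.3% over all listings. Fragments more than 10 Mb from the median position of their promoter numbered 3 of 32 (9.38%, 2 named Gad1 and 1 of Gabrg3), against 13.1% of all listings. The Sst pair 2 bp apart was the single case of adjoining fragments, where 14.8% of all listings adjoin another of the same promoter within 10 bp. The median length of the member fragments was 3350 bp, against 2964 bp over all listings.

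**Figure D3:**
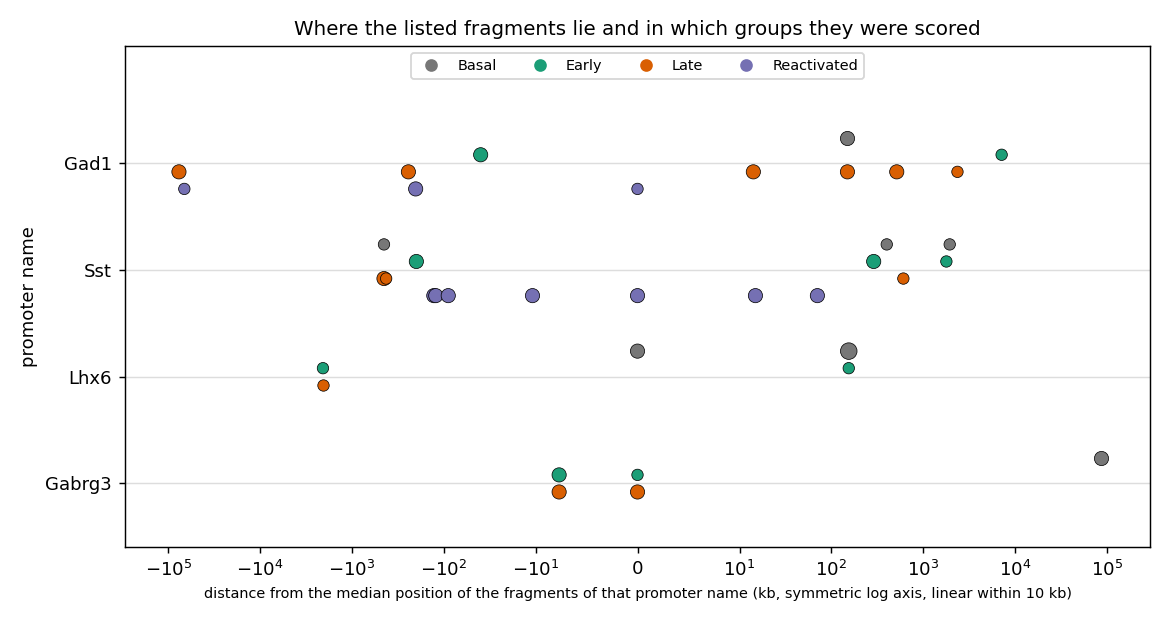
Distance of each listed fragment from the median position of the fragments of its promoter name (kb, symmetric log axis), coloured by the group in which it was scored and sized by the number of libraries. The 7 Sst fragments of the Reactivated group lie within 128 kb of the centre, with those of other groups outside them, and the Basal fragment of Gabrg3 lies 86.9 Mb away.

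The promoters with the most similar levels were found by the mean absolute difference in mean asinh score over the 15 libraries, among 4003 candidates (4002 for Lhx6) with at least 2 fragments and none shared with the member. Nearest to Sst were Ctsd, a lysosomal protease gene, Sdcbp, which encodes syntenin, and Gcm1, with differences of 0.117, 0.150 and 0.155, where the median candidate differed by 0.578. Nearest to Lhx6 were Rbmxl2, Pik3r2, a regulatory subunit gene of PI3 kinase, and Sumo2 at 0.204, 0.245 and 0.246, against a median of 1.07. Spopl, Zc3h12c and Napsa lay nearest to Gabrg3 at 0.306, 0.347 and 0.429, against a median of 1.40. Nearest to the listings named Gad1 were Trappc9, Chmp4c and Spef2 at 0.160, 0.193 and 0.202, against a median of 0.650. None of these 12 is on the wider list below.

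The wider list of GABA and interneuron genes held 91 names, and 41 of them had a promoter in the table with 394 listings in all. These were 9 of 11 genes of GABA synthesis, transport and chloride balance, 7 of 19 GABA-A subunit genes, 3 of 10 inhibitory scaffold genes, 15 of 23 interneuron peptides and markers, 7 of 22 interneuron transcription factors and 0 of 6 GABA-B genes. The 9, the 41 and the values below include the name Gad1, whose listings lie on chromosome 10 and cannot be read as contacts of that gene. In none of the 6 comparisons did a promoter of the list pass by limma, and at an unadjusted p under 0.05 there were 1 of 41 in Early against Basal (5.83% of all promoters), 2 in Late against Early (6.95%) and 6 in Reactivated against Late (13.8%). Late against Basal had 3 (8.2%), and Reactivated had 3 against Basal (11.2%) and 3 against Early (11.3%). The median difference of the 41 was -0.0233 in Early against Basal, 0.116 in Late against Early and 0.108 in Reactivated against Late, where that of all promoters was 0, 0.0620 and 0.182. It was 0.0235 in Late against Basal, 0.335 in Reactivated against Basal and 0.413 in Reactivated against Early, where that of all promoters was 0.145, 0.312 and 0.258. Higher than lower were 26 to 12 of the 41 in Reactivated against Basal and 26 to 14 in Reactivated against Early, and 16 to 23 in Early against Basal. All promoters were split 2789 to 1256, 2728 to 1448 and 2201 to 1808 in these comparisons.

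Of the 41 promoters of the list, 35 (85.4%) had a score in both Reactivated libraries 3 and 4, as had 79.5% of all promoters. Nos1, which encodes the neuronal nitric oxide synthase of an interneuron class, had mean asinh scores of 0, 0, 4.02 and 4.13 in Reactivated libraries 1 to 4 and of 0 in every Basal and Early library, with 1.70 in Late library 1. Its difference in Reactivated against Basal was 2.04 (standard error 0.830, limma adjusted p 0.424) and in Reactivated against Late 1.61 (standard error 0.769, limma adjusted p 0.352). Slc6a11, a GABA transporter gene, had 0, 0, 4.19 and 4.19 in Reactivated against 0, 0.611, 0, and 0 in Late, a difference of 1.94 (standard error 0.870, limma adjusted p 0.320). In Reactivated against Basal, Prox1, an interneuron and granule cell transcription factor gene, differed by 1.29, and in Reactivated against Early the peptide gene Cck differed by 1.57. Their limma adjusted p was 0.438 and 0.396.

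Gabarap, which encodes a GABA-A receptor-associated protein, had its single fragment scored in Late libraries 3 and 4 alone. Its asinh score was 7.68 and 7.35 there, which gave differences of 3.76 in Late against Early (limma adjusted p 0.486), of 3.76 in Late against Basal (limma adjusted p 0.482) and of -3.76 in Reactivated against Late (limma adjusted p 0.278). Aldh5a1, which encodes an enzyme of GABA breakdown, was higher in Late by 1.22 than in Early and by 1.26 than in Basal, with limma adjusted p of 0.669 and 0.600. Etv1, a transcription factor gene with a single listed fragment, had 6.16 in Early library 1 and 0 in the other 14 libraries, so that its differences of 1.54 in Early against Basal and of -1.54 in Late against Early and in Reactivated against Early rest on that library (limma adjusted p 1, 0.855 and 0.525). The GABA transaminase gene Abat differed by 1.01 in Early against Basal, and Elfn1 by -1.06, each with a limma adjusted p of 1. Gabrd, the delta subunit gene, had the second lowest difference of the non-members in Late against Early, -0.986, and the lowest in Late against Basal, -1.61, followed there by Slc6a11 with -1.40. Gabrb2 had -1.11 in Reactivated against Late and -0.774 in Reactivated against Basal, and Erbb4 had -0.530 in Reactivated against Basal. Their limma adjusted p ran from 0.460 to 0.989.

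**Figure D4:**
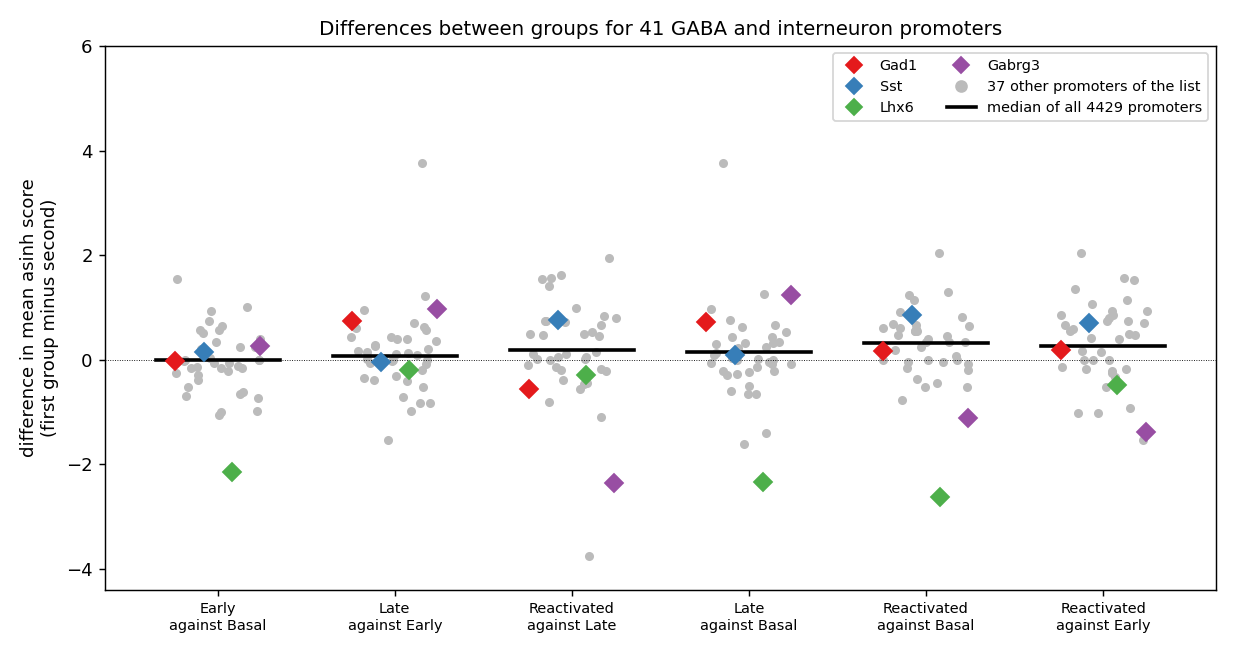
Difference in mean asinh score (first group minus second) for the 4 promoter names (diamonds) and 37 other promoters of the wider list (grey points) in the 6 comparisons, with the median of all 4429 promoters as a black line. Lhx6 lies at -2.15, -2.35 and -2.63 in the comparisons with Basal, and Gabarap at 3.76 in Late against Early and in Late against Basal.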

How the data were processed

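The deposited table gives, per the file headers, an interaction score by the authors for each promoter name and HindIII fragment in 15 libraries. The positions are on mm9, per the submitters' processing notes. Aligner, caller, filters and any normalization: not given in the sources used here. Depth is unknown, and whole-number scores can carry it.

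Groups came from the sample titles. The asinh of the score, with 0 for no score, was fitted over all 15 libraries in limma 3.58.1 (R 4.3.3, statmod 1.5.0, robust and with a variance trend), for each listing, for the mean of each promoter and for its called contacts (score of 5 or more). Benjamini-Hochberg adjustment ran over the whole table, with a threshold of 0.05. The fit was tried on shuffled real scores with large shifts added, which does not measure how well it finds differences of the size reported. Library sets join libraries of a group that share at least 40% of the smaller one's fragments. Alternatives changed the scale, normalization, filter, variance model, pairing and libraries. Python 3.11.15, pandas 2.3.3 and matplotlib 3.10.9 gave descriptions and figures.

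The members and lists were chosen with earlier results of these data known. By rule, the text names in each comparison the 2 wider-list promoters that were highest and the 2 that were lowest, and the 3 promoters most like each member. Some promoters that this rule picks are not reported here. Names of clones, olfactory receptors, microRNAs and predicted genes were passed over there.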

Additional observations from a re-analysis of the deposited data

Results flagged for a closer look

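Of 51 sets of 4 libraries with unequal values for the 4 promoter names, 15 had 1 library standing apart from the other 3 by a gap beyond Dixon's critical value. Chance passes that value in about 1 in 20 groups of normally spread values. Here a set with 1 scored library and the other 3 at 0 passes whatever the score. With so many cells without a score, the 15 can therefore not be set against that rate. Single fragments gave 11 of the 15. Those named Gad1 had 19 and 2 in Reactivated library 3, 21 in Late library 1 and 7 in Early library 4. Those of Sst had 13 and 10 in Late library 2 and 31 in Early library 4. Lhx6 had 4 in Early library 4, 16 in Late library 1 and 21 in Early library 1, and Gabrg3 had 83 in Early library 1. Of the values per promoter, the mean asinh score of Sst was 0 in Late library 1, below the other Late libraries, and that of Lhx6 was 1.156 in Late library 1, above them. Lhx6 had 1 called contact in Early library 1 and 1 in Late library 1, and 0 in the other libraries of those groups.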

How the results depend on the processing

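Leaving out Reactivated libraries 1 and 2 moved the counts most. In place of 0, limma then called 8 member listings in Reactivated against Late, 9 in Reactivated against Basal and 8 in Reactivated against Early, and 1, 2 and 1 promoters, by mean score and by called contacts alike. Of all features, 24.9% to 25.1% of listings, 43.8% to 45.6% of promoters by mean score and 28.1% to 29.4% by called contacts passed there, so the members' counts are no result about them. Without a variance trend, 1 listing passed in Late against Basal (0.553% of all) and 1 in Reactivated against Basal (0.402%). After quantile normalization, 1 promoter passed in Late against Basal (0.768% of all) and 1 in Reactivated against Basal (0.429%). Among listings scored in at least 3 libraries, where Lhx6 keeps 1 fragment, 1 promoter passed in each of these comparisons (0.441% and 0.323% of all). Leaving out single libraries gave 0 to 3 listings in Early against Basal, 0 to 3 in Reactivated against Late, 0 to 2 in Late against Basal, 0 to 4 in Reactivated against Basal and 0 to 3 in Reactivated against Early, and 0 to 1 promoters by mean score in each of the 3 comparisons with Basal. The libraries whose absence gave these calls were number 3 of Basal, number 1 of Early and numbers 1 and 2 of Reactivated, and for promoters number 3 of Basal. Of all listings, 5.76% to 6.24% passed without number 3 of Basal in the comparisons with Basal, and 10.9% to 13.6% without number 1 or 2 of Reactivated in those of Reactivated. Without number 1 of Early, 0.426% to 0.567% of listings passed in the comparisons with Basal. Of all promoters by mean score, 1.4% to 1.54% passed in those comparisons without number 3 of Basal. The fragment named Gad1 at 99038355 passed without Basal library 3 in Early against Basal (-5.225, limma adjusted p 0.006867) and Reactivated against Basal (-5.225, limma adjusted p 0.006531). Nos1, with 2 listed fragments, passed in Reactivated against Early without Reactivated library 1 or 2 (2.717, limma adjusted p 0.04656 and 0.04525). The Nos1 value is a mean score, and the share of all promoters that passed by mean score in that comparison and these settings is not given here. The Nos1 call is therefore no result about Nos1. Of all listings, 12.7% and 12.9% passed there. In Reactivated against Late, another comparison, 155 and 147 of 4429 promoters passed by mean score in the same settings.

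Some differences in mean asinh score changed sign, none of them past the threshold, among them the Sst differences of Reactivated and that of Gad1 in Late against Basal. Among listings scored in at least 3 libraries, which leaves 1 fragment of Sst and 1 named Gad1, Sst was at -0.9645 in Early against Basal, 2.786 in Late against Early, -2.786 in Reactivated against Late and -0.9645 in Reactivated against Basal, and Gad1 at -1.678 in Late against Basal and -3.483 in Reactivated against Basal. Quantile normalization put Gad1 at -0.0202 in Reactivated against Basal and -0.00403 in Reactivated against Early, Lhx6 at 0.05893 and the first Gabrg3 fragment at -0.0006969 in Late against Early. With 1 mean per library set, Sst was at -0.07254 in Early against Basal, 0.06243 in Late against Early and -0.01011 in Late against Basal, and the Gabrg3 fragment at -0.2189 in Late against Early. Presence of a score put Gad1 at 0.007576 in Early against Basal, and fragments listed with 1 promoter put Lhx6 at 0.1715 in Late against Early. Leaving out single libraries gave ranges across 0 in Early against Basal for Gad1 (-0.1809 to 0.07543), Sst (-0.01226 to 0.3414) and Gabrg3 (-0.5033 to 0.8061), and in Late against Early for Sst (-0.1652 to 0.1022), Lhx6 (-0.4861 to 0.05615) and the Gabrg3 fragment (-0.5194 to 1.943). They also crossed 0 for Sst in Late against Basal (-0.01011 to 0.29) and for Gad1 in Reactivated against Basal (-0.07533 to 0.3213) and Reactivated against Early (-0.05274 to 0.3439). The cause was not tested.

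Same-numbered libraries did not deviate together, with r of -0.04678 to 0.0665 over 21 pairs, so the numbers were not used for pairing. With the replicate block 0 listings and 0 promoters passed, and Sst was at -0.03399 in Early against Basal and -0.08536 in Late against Basal. Every absence of a score is limited by how few listings some libraries scored, above all Reactivated libraries 1 and 2. Sequencing depth is unknown, and its part in this was not tested.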
